A study of Mus musculus with 8 samples.

Results

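The genes described here are 7 members of the cholesterol synthesis and uptake programme, namely Hmgcs1, Fdps, Fdft1, Sqle, Cyp51, Dhcr7 and Srebf2. They were found among 23523 features by matching RefSeq accessions to gene symbols and summing the estimated fragments of each gene in each library. Of the 7 genes, 6 were among the 14641 genes with enough fragments to be tested, and Hmgcs1 was listed at 0 in every library. RNA sequencing compared 3 normal mouse brains with 5 mouse glioblastomas. A lentiviral vector with HrasG12V, an activated Ras, and an shRNA that lowers p53 gave rise to the tumours, which were taken at clinical endpoint. Tumour tissue was recognised by GFP, and normal tissue was cut away from it under a dissecting microscope. The labels do not say whether the normal brain libraries came from that trimmed tissue or from mice without a tumour. The sources used here give neither strain, age or brain region nor the promoter of the vector and the cells it entered. Nothing in the labels says that the libraries came from separate animals, so p-values measure only the spread between these samples, which may be technical.

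Cells make cholesterol from acetyl-CoA through the mevalonate pathway, whose isoprenoid intermediates also feed ubiquinone, dolichol and protein prenylation, or take it up in lipoproteins through receptors. The transcription factor SREBP-2, the product of Srebf2, is held in the endoplasmic reticulum with the sterol sensor Scap when sterols are plentiful, and is cut in the Golgi and released when they are scarce. It then activates the genes of synthesis and uptake, usually together with the factors NF-Y and Sp1. The brain makes nearly all of its own cholesterol because lipoproteins do not cross the blood-brain barrier, and much of that cholesterol is in myelin.

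The promoter is where that shared control acts, so the 250 bases upstream of the annotated start are shown for the first enzyme, a late enzyme and the regulator. Sequences are from RefSeq on build GRCm38.p6, 5′ to 3′ on the strand of the gene, with motif matches in capitals. A RefSeq window was matched for 4 of the 7 genes, and not for Fdps, Fdft1 or Sqle. Hmgcs1 lies on the + strand at chr13:119690101-119690350, Cyp51 on the - strand at chr5:4104698-4104947 and Srebf2 on the + strand at chr15:82147019-82147268.
Hmgcs1: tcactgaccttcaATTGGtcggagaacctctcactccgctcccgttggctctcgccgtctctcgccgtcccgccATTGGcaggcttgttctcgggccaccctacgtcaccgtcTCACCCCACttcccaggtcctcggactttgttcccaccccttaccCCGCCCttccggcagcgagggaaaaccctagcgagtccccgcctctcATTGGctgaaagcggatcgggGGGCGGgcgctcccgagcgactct
Cyp51: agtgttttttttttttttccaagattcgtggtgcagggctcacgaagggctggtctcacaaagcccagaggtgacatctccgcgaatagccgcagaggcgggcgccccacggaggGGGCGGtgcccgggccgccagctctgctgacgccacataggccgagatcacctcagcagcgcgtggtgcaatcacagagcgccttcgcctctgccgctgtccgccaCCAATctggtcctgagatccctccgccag
Srebf2: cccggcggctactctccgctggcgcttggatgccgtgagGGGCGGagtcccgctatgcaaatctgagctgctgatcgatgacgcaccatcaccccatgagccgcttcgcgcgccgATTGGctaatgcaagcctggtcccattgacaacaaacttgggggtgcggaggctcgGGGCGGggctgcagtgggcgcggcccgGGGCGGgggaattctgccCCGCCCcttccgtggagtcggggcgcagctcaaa
The motifs searched on both strands were a sterol regulatory element (TCACNCCAC), the NF-Y box (CCAAT) and the Sp1 box (GGGCGG), which share no letters in these windows. The Hmgcs1 window held 1 match to the sterol regulatory element, 137 to 129 bases upstream of the start, with 3 NF-Y boxes and 2 Sp1 boxes. In the Cyp51 window, 1 NF-Y box lay 29 to 25 bases upstream and 1 Sp1 box 135 to 130 bases upstream. In the Srebf2 window there were 1 NF-Y box, 135 to 131 bases upstream, and 4 Sp1 boxes. Dhcr7 had 3 annotated starts, of which the first had a window with 1 Sp1 box only, the second had no match and the third had 2 NF-Y boxes and 3 Sp1 boxes. Among 32851 windows of the same length, 1.05% held the sterol regulatory element, 33.8% the NF-Y box and 32.7% the Sp1 box. These matches are letters in a window and not measured binding sites. Only these exact letters were searched, so a window without a match may still hold a variant of an element.

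Library totals ranged from 6315241 to 7719196 fragments in the brains and from 5490351 to 15564280 in the tumours, and 3 fragments were worth 0.193 to 0.546 CPM (fragments scaled to a fixed library total). Of the 14641 genes tested, 37.1% were called higher and 33.9% lower in the glioblastomas, at an adjusted p below 0.05 in edgeR's quasi-likelihood test with Benjamini-Hochberg adjustment. Markers of normal brain cells were lower in the tumours. For neurons, 9 of 10 listed markers fell and their summed level was 8308 to 9261 CPM in the brains against 234 to 529 CPM in the tumours. For astrocytes, 8 of 9 fell, from sums of 5747 to 6200 CPM to sums of 747 to 1742 CPM. For myelinating oligodendrocytes, 10 of 11 fell, from 2392 to 4645 CPM, with the highest sum in brain 1, to 245 to 959 CPM. For oligodendrocyte precursors, 1 of 8 markers rose and 2 fell, and the tumours spread from 153 to 2186 CPM around brains at 279 to 300 CPM, with the highest sum in tumour 4. All 10 macrophage and monocyte markers rose, from sums of 156 to 176 CPM to 1251 to 3168 CPM. All 10 cell cycle genes rose, from 19.8 to 27.6 CPM to 630 to 1655 CPM, and 7 of 8 endothelial markers rose, from 105 to 122 CPM to 257 to 493 CPM. In both of the latter lists, and in the macrophage list, tumour 4 had the lowest sum of the 5 tumours. No marker of these lists was at 0 in all tumours, and the part of these cell types in the results below was not tested. In bulk tissue, fewer cells of a type and less RNA per cell cannot be told apart.

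Among the 6 genes tested, 4 were higher in the glioblastomas (Fdps, Sqle, Dhcr7 and Cyp51) and 2 were lower (Fdft1 and Srebf2). In all 6 genes the 3 brains and the 5 tumours did not overlap. That count stands against a background in which 71.0% of all genes tested were called in either direction and 70.6% did not overlap between groups, 36.1% with the tumours higher and 34.5% with the tumours lower, so it is not a result particular to these genes. The changes were of moderate size, between 1.20-fold and 2.5-fold, and the median absolute log2 fold change was 0.81 against 1.18 over all genes tested. The median signed log2 fold change was 0.50, against 0.06 over all genes tested. The plot of CPM by library shows these values.

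**Figure D1:**
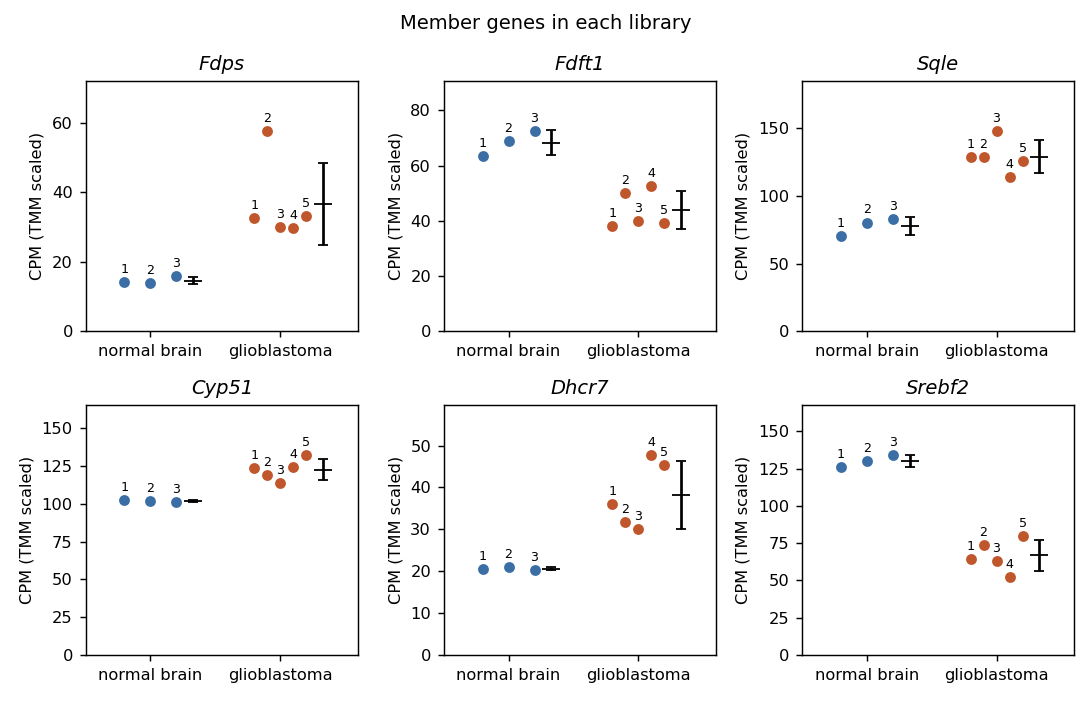
CPM (linear axis from 0) of the 6 tested genes in each library, with 3 normal brains and 5 glioblastomas as numbered points, and the group mean with its SD as the black line and error bar. Fdps, Sqle, Cyp51 and Dhcr7 lie higher in the tumours, Fdft1 and Srebf2 lower, and tumour 2 stands above the other tumours for Fdps at 57.6 CPM.

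The mevalonate part of the pathway begins with Hmgcs1, the cytosolic synthase that joins acetoacetyl-CoA and acetyl-CoA to HMG-CoA. Hmgcs1 was listed at 0 fragments in all 8 libraries under 1 accession. In the same table Gapdh, a glycolytic enzyme used by every cell, was listed at only 1 to 10 fragments and the abundant isomerase Ppia at 0 to 2, while the actin gene Actb had 10241 to 126981. The listed 0 is therefore not read as absence of the transcript, and no fold change is given. Stretches of at least 95% identity were found in 144 other genes for Gapdh and 33 for Ppia, but in only 1 for Hmgcs1. That stretch covers 16.2% of the longest Hmgcs1 transcript, against 16.7% for Fdps, which was counted. Why Hmgcs1 was listed at 0 was not tested.

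Fdps makes farnesyl diphosphate, the last common intermediate of sterols, ubiquinone, dolichol and prenylated proteins. Its level was 14.0, 13.9 and 15.8 CPM in brains 1 to 3 and 32.4, 57.6, 29.9, 29.8 and 33.1 CPM in tumours 1 to 5. Every tumour was above every brain, and tumour 2 stood apart from the other tumours. The means were 14.6 ± 1.08 CPM (SD, n = 3) and 36.5 ± 11.8 CPM (SD, n = 5), a 2.5-fold rise. In edgeR the log2 fold change was 1.32 ± 0.26 (SE), with a 95% interval of 0.70 to 1.95 and an adjusted p of 0.00151. Fdps is the least deeply counted of the 6, with 295 fragments over the brains and 1686 over the tumours. Stretches of at least 95% identity to 6 other genes, of which 5 are pseudogenes, cover 16.7% of its longest transcript, so its count is less certain than those of Sqle, Dhcr7 and Srebf2, for which no such copy was found.

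Fdft1, squalene synthase, joins a pair of farnesyl diphosphates and so commits them to sterols. Its level was 63.6, 69.0 and 72.5 CPM in the brains and 38.2, 50.0, 39.8, 52.5 and 39.3 CPM in the tumours. All tumours lay below all brains, with tumours 2 and 4 nearest to them. The log2 fold change was -0.64 ± 0.15 (SE; 95% interval -1.0 to -0.27), with an adjusted p of 0.00436 in edgeR. Near-identical stretches shared with Ctsb, a lysosomal protease, and with 1 pseudogene cover 54.7% of its longest transcript, and its count is uncertain to that extent.

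Sqle, squalene epoxidase, carries out the first oxygenation of the sterol branch and is one of its rate-limiting steps. Its level was 70.2, 80.4 and 83.2 CPM in the brains and 128, 129, 148, 114 and 126 CPM in the tumours. The groups were apart, and the tumours lay close together around 129 ± 12.2 CPM (SD, n = 5). It rose by a log2 fold change of 0.73 ± 0.13 (SE; 95% interval 0.41 to 1.04; adjusted p = 0.000955 in edgeR).

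Cyp51, lanosterol demethylase, takes the first step after lanosterol. Its level was 103, 102 and 101 CPM in the brains and 123, 119, 114, 124 and 133 CPM in the tumours. These were the smallest differences among the 6 genes, although the brains were so even that the groups did not overlap. Its log2 fold change was 0.27 ± 0.11 (SE; 95% interval 0.01 to 0.53), with an adjusted p of 0.0492 in edgeR. This call lies at the threshold, and the adjusted p was above 0.05 when any single brain was left out, between 0.119 and 0.131, and also without tumour 1, 2 or 5, between 0.0575 and 0.0771. Near-identical sequence shared with Akap9 covers 4.22% of its transcript.

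Dhcr7, which makes cholesterol itself from 7-dehydrocholesterol at the end of one of the final routes, was at 20.5, 20.9 and 20.3 CPM in the brains and at 36.0, 31.8, 30.0, 47.8 and 45.4 CPM in the tumours. All tumours were higher, and tumours 4 and 5 were the highest of the 5. Its log2 fold change was 0.90 ± 0.19 (SE; 95% interval 0.42 to 1.37; adjusted p = 0.00284 in edgeR).

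Like Fdft1, Srebf2, the regulator of these enzymes, was lower in the tumours. Its level was 126, 130 and 134 CPM in the brains and 64.2, 73.8, 63.3, 52.5 and 80.1 CPM in the tumours. The highest tumour was well below the lowest brain. The log2 fold change was -0.96 ± 0.15 (SE; 95% interval -1.33 to -0.60), with an adjusted p of 0.000418 in edgeR. The transcript level of Srebf2 does not measure how much SREBP-2 is cut and active.

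The unequal change of the 6 genes was also described by ratios within a library, which do not depend on how libraries are scaled. Where 1 gene rose and the other fell without overlap, their ratio had to separate the groups. Such pairs restate the changes above and add no further support. In 12 of the 15 pairs the ratio did not overlap between groups, each with a two-sided exact permutation p of 0.0357. That is the smallest p that this two-sided form of the test can give for 3 against 5 libraries. It was 0.0446 after Benjamini-Hochberg adjustment over the 15 pairs. The pairs share the same 6 genes and are not independent. The share of such pairs over all genes tested was not computed, and 70.6% of single genes did not overlap between groups. The count is therefore not read as particular to these genes. The log2 ratio of Fdps to Fdft1, which are consecutive enzymes, was -2.18, -2.32 and -2.20 in the brains and -0.24, 0.20, -0.42, -0.82 and -0.25 in the tumours. The mean of that log2 ratio was 1.93 higher in the tumours, with tumour 4 nearest to the brains. Between Fdft1 and the next enzyme, Sqle, the log2 ratio fell by 1.38. Relative to Srebf2, the log2 ratios of Fdps, Dhcr7 and Sqle were higher in the tumours by 2.26, 1.84 and 1.70. Each ratio given so far joins a gene that rose with one that fell. Some pairs that moved in the same direction also separated the groups. Fdps over Cyp51 shifted by 1.02, Cyp51 over Dhcr7 by -0.60, Fdps over Sqle by 0.55 and Sqle over Cyp51 by 0.46. The pairs that did not pass likewise joined genes that moved in the same direction. Fdps over Dhcr7 shifted by 0.41 (exact permutation p = 0.286), Fdft1 over Srebf2 by 0.33 (exact permutation p = 0.143) and Sqle over Dhcr7 by -0.14 (exact permutation p = 0.643).

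**Figure D2:**
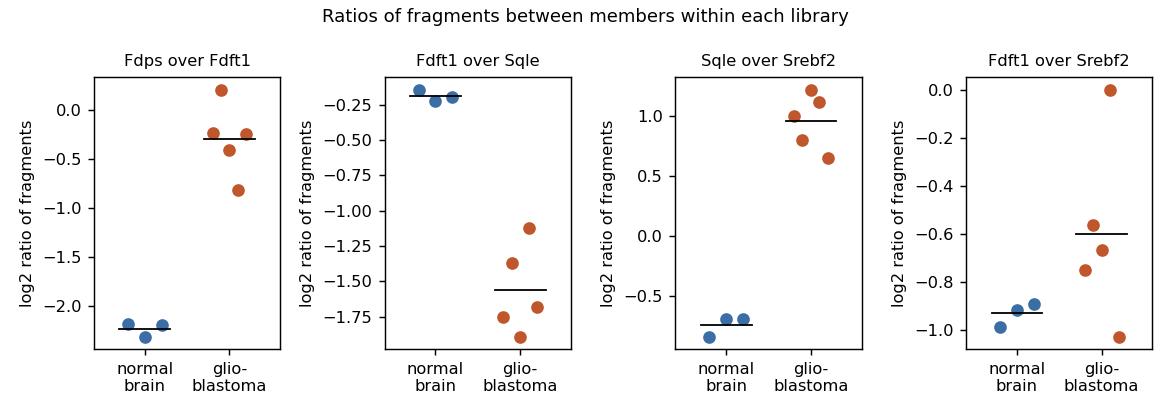
Log2 ratio of fragments for 4 of the 15 pairs of genes, with 3 normal brains and 5 glioblastomas as points, group means as lines and a separate axis range in each panel. Fdps over Fdft1 and Sqle over Srebf2 lie higher and Fdft1 over Sqle lower in every tumour, whereas Fdft1 over Srebf2 overlaps between the groups.

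Levels of different genes were compared per transcript length, as FPKM (fragments scaled by transcript length and library size). In the brains the order was Sqle at 29.0 ± 2.65 FPKM, Srebf2 at 28.2 ± 1.0, Fdft1 at 24.3 ± 1.69, Cyp51 at 23.3 ± 0.0941, Fdps at 13.1 ± 1.15 and Dhcr7 at 7.45 ± 0.123 (SD, n = 3). Sqle and Srebf2 overlapped in that order, and so did Fdft1 and Cyp51. In the tumours it was Sqle at 47.7 ± 4.87 FPKM, Fdps at 31.3 ± 11.4, Cyp51 at 27.8 ± 1.35, Fdft1 at 15.5 ± 2.43, Srebf2 at 14.4 ± 2.35 and Dhcr7 at 13.7 ± 2.68 (SD, n = 5). Only Cyp51 and Fdft1 were neighbours without overlap there. By mean FPKM, Srebf2 thus moved from rank 2 of 6 in the brains to rank 5 in the tumours, with Sqle at rank 1 in both. Fdps moved from rank 5 to rank 2, but its place above Cyp51 rests on tumour 2, at 51.5 against 27.8 FPKM. In tumours 3, 4 and 5 Cyp51 was above Fdps, at 25.8, 27.7 and 29.6 against 24.2, 25.1 and 27.5 FPKM.

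Among the tumours the 6 genes did not vary alike. The SD of log2 CPM over the 5 tumours was 0.081 for Cyp51, 0.134 for Sqle, 0.216 for Fdft1, 0.233 for Srebf2, 0.300 for Dhcr7 and 0.398 for Fdps, against a median of 0.379 over all genes tested. Cyp51 lay at the 1.17th percentile of all genes tested and Sqle at the 6.20th, so both were among the most even genes across these tumours, while Fdps was at the 52.8th. The Fdps value rests on tumour 2, without which its SD was 0.079. Without tumour 3, the highest for Sqle, the SD of Sqle was 0.083. Among the brains all 6 SDs, between 0.011 and 0.129, were below the median of 0.154 over all genes tested.

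No tumour was high for the whole set. Tumour 2 was highest for Fdps, tumour 3 for Sqle, tumour 4 for Fdft1 and Dhcr7, and tumour 5 for Cyp51 and Srebf2. Tumour 4 was also lowest for Fdps, Sqle and Srebf2, so it was the highest or lowest tumour for 5 of the 6 genes. It was so for 68.5% of all genes tested, and it was the most deeply sequenced library, with the highest sum of oligodendrocyte precursor markers and the lowest of macrophage and cell cycle genes. The part of these differences in the spread was not tested.

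**Figure D3:**
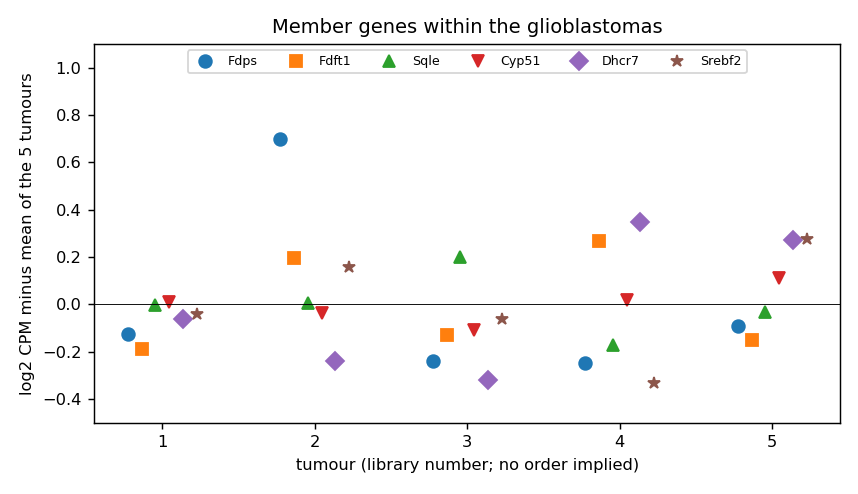
Log2 CPM of the 6 tested genes in each of the 5 glioblastomas, minus the mean of the 5 tumours for that gene, with 1 symbol per gene and no order implied between tumours. Fdps in tumour 2 is the point farthest from 0, and the points of Cyp51 stay nearest to 0.

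The other genes of the programme were taken from lists by function. Each count below stands against 37.1% of all genes tested called higher and 33.9% called lower. A count near those shares is not read as a result about its list. Of 15 other enzymes of cholesterol synthesis, 4 were higher and 1 was lower in the tumours, with a median log2 fold change of 0.08. None of the 6 genes of the mevalonate steps passed at an adjusted p below 0.05 in edgeR, and none had an unadjusted p below 0.05. DESeq2 and limma also called none, and edgeR with upper quartile factors called Mvd, the decarboxylase of the last mevalonate step. Acat2, the thiolase that supplies acetoacetyl-CoA, was at 39.5 ± 2.68 CPM (SD, n = 3) in the brains and 42.6 ± 5.86 CPM (SD, n = 5) in the tumours.

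Of 9 further genes of the sterol steps, 4 rose and 1 fell. Lbr, a sterol reductase that is also the lamin B receptor of the inner nuclear membrane, rose from 26.9 ± 1.68 CPM in the brains to 97.7 ± 17.1 CPM in the tumours (SD, n = 3 and 5), or 1.86 ± 0.19 (SE) as a log2 fold change. Hsd17b7, a sterol ketoreductase, rose by 1.46 ± 0.21 on the log2 scale. Ebp and Msmo1, named after their values were seen as the rest of those that rose, had log2 fold changes of 1.03 ± 0.25 and 0.74 ± 0.19. The count called lower in this list was 2 without tumour 4.

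**Figure D4:**
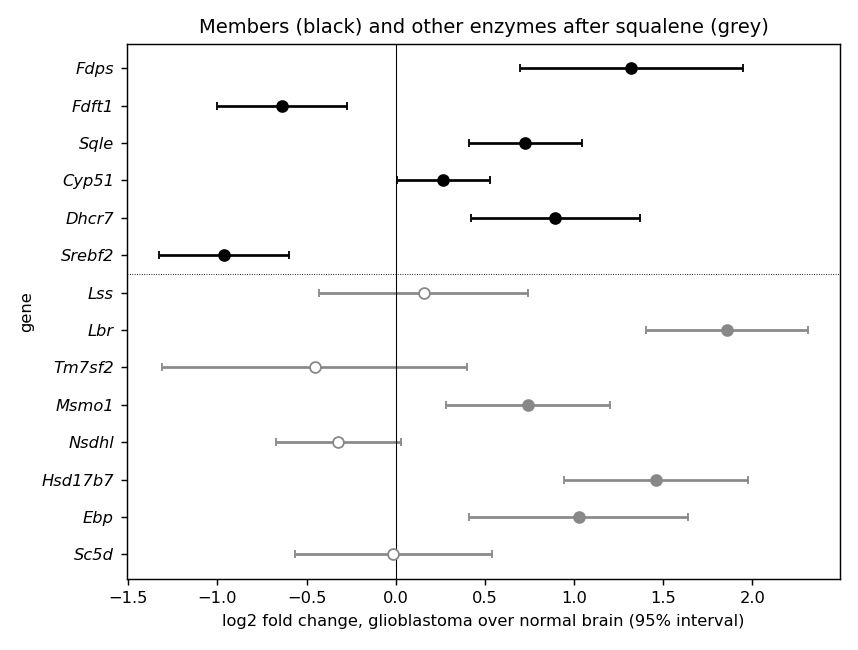
Log2 fold change of glioblastoma over normal brain from edgeR for the 6 tested genes (black) and 8 further genes of the sterol steps (grey), with 95% intervals as horizontal bars, filled points for an adjusted p below 0.05 and open points for the rest. Among the genes plotted Lbr lies farthest to the right at 1.86 and Srebf2 farthest to the left at -0.96, and the interval of Cyp51 comes closest to 0 among the 6.

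The genes that control SREBP processing were called in both directions. Of 10, 5 were called higher and 1 lower, with a median log2 fold change of 0.20. Mbtps1, the first of the proteases that cut SREBP in the Golgi, rose from 97.0 ± 1.18 to 179.8 ± 16.4 CPM (SD, n = 3 and 5; log2 fold change 0.89 ± 0.12). Rnf139, a ubiquitin ligase of the endoplasmic reticulum membrane, rose by 0.75 ± 0.12 on the log2 scale. Scap, the sterol-sensing escort of SREBP, fell from 80.2 ± 3.48 to 43.1 ± 12.7 CPM, a log2 fold change of -0.89 ± 0.23. Srebf1 (0.52 ± 0.17) and Erlin1 (0.70 ± 0.26 on the log2 scale), named after their values were seen, were also called higher. The count called higher was 3 without brain 1 or tumour 2, 3 or 5, and 2 without brain 2 or brain 3. The count called lower was 2 without tumour 4 or tumour 5, and also with the filter of 5 CPM, with limma at either pseudocount and with thinned libraries.

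Among 13 genes of lipoprotein uptake and lysosomal export of cholesterol, 7 rose and 1 fell, with a median log2 fold change of 0.53. Npc2, which binds cholesterol in the lysosome, rose from 66.6 ± 3.65 CPM in the brains to 705 ± 153 CPM in the tumours (SD, n = 3 and 5), or 3.40 ± 0.23 (SE) as a log2 fold change. Lrp8, a receptor of the lipoprotein receptor family that is abundant in neurons, fell from 78.4 ± 9.19 to 32.3 ± 5.74 CPM, a log2 fold change of -1.28 ± 0.17. Other surface receptors, named after their values were seen, differed among themselves. Scarb1 rose by 0.59 ± 0.16 on the log2 scale, whereas Vldlr (-0.23 ± 0.29) and Lrp1 (-0.23 ± 0.13) did not pass the test.

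Of 12 genes of efflux, storage and turnover, 5 were called higher and 3 lower. Abca1, the transporter that loads cholesterol onto apolipoproteins, rose from 106 ± 4.51 CPM in the brains to 847 ± 386 CPM in the tumours (SD, n = 3 and 5), or 3.00 ± 0.37. as a log2 fold change Ch25h, the cholesterol 25-hydroxylase, had 2 fragments in the brains, both in brain 2, and 277 in the tumours. The ratio of its levels was 56.5, with a 95% exact Poisson interval of 15.6 to 466 for counting error only. Its fitted log2 fold change was 5.73, and 8.76 without brain 2, when no brain fragment is left and the fitted value depends on the prior count. Cyp46a1, the 24-hydroxylase through which neurons dispose of cholesterol, fell from 90.8 ± 14.3 to 3.59 ± 2.55 CPM, a log2 fold change of -4.60 ± 0.49. Without brain 1 and tumour 4 together its log2 fold change was -5.26. Without tumour 4 alone, the count of this list called lower was 5.

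The branch from farnesyl diphosphate to prenylated proteins, dolichol and ubiquinone did not move in 1 direction, with 4 of 14 genes higher, 4 lower and a median log2 fold change of 0.03. Zmpste24, the protease that trims prenylated lamin A, rose by 1.31 ± 0.16 on the log2 scale. Rabggtb, a subunit of the Rab geranylgeranyl transferase, rose by 0.94 ± 0.16, and its summed fragments were not whole numbers in any of the 8 libraries, which makes its count uncertain. Pdss2, a subunit of the synthase that makes the ubiquinone side chain, fell from 18.7 ± 1.26 to 5.29 ± 0.977 CPM, a log2 fold change of -1.82 ± 0.20.

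The genes outside the members most like each of the 6 were sought among the genes tested. The measure was the root mean square difference of mean-centred log2 CPM over the 8 libraries, with the lowest values named. For Fdps they were Rhebl1 (0.138) and Pdcd6 (0.165), and for Dhcr7 they were Cdc42se1 (0.102) and Gtf2a2 (0.120). Closer profiles were found for Cyp51, with Actr1a at 0.026 and Mtfr1l at 0.045, and for Sqle, with Ctnnb1 at 0.053 and Farsb at 0.054. For Fdft1 they were Fkbp8 (0.049) and Coq3 (0.077), and for Srebf2 they were Macf1 (0.046) and Nr6a1 (0.047). By the same measure the closest pair among the 6 was Sqle and Cyp51 at 0.273, and the farthest was Fdps and Srebf2 at 1.11. None of the 6 had another of the 6 as its nearest gene. With 14641 genes tested to draw from, that was nearly fixed in advance and does not show whether the 6 move together. The measure rests on 8 libraries that share the group difference.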

How the data were processed

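The samples were 3 normal brains and 5 glioblastomas, in groups that follow the labelled tissue, with replicate numbers in accession order that pair no samples. The submitters' processing notes name STAR 2.3.0e, Cuffdiff 2.1.1 and build mm9. The sources used here do not give the annotation release, filters or strand setting. The authors deposited estimated counts of fragments and FPKM values for 30967 RefSeq accessions, per the file headers. Symbols came from RefSeq for 30474 accessions and from GENCODE for 178, and 315 without one held 0.507% of fragments. Estimated counts were summed per gene and rounded, and no sum of the 7 genes was fractional within 0.01. The lowest chi-square per degree of freedom between replicates was 4.96, so no pair of libraries was merged.

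The main test was edgeR 4.0.16 (TMM factors, default filter, robust quasi-likelihood F test, Benjamini-Hochberg adjustment over 14641 genes, threshold 0.05). Standard errors were computed from F, with 6 degrees of freedom for 95% intervals. CPM use TMM factors, with a prior count of 2 before taking log2. The planned 21 ratio pairs became 15 because Hmgcs1 was listed at 0. Near-identical copies were sought among GENCODE transcripts. Named genes were the 7 genes, the 2 genes nearest to each in profile and, per list, the 2 largest called changes in the commoner direction and the largest opposite to it, or the 2 most abundant where none passed; some genes the rule names are not reported here. Alternatives were DESeq2 1.42.0, limma 3.58.1 on log2(FPKM + 1) and log2(FPKM + 0.1), other scalings and filters, libraries left out and thinning to one depth. The genes and lists were chosen with earlier results of these data known. The fitting steps were tested on simulated data.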

Additional observations from a re-analysis of the deposited data

Results flagged for a closer look

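Fdps in tumour 2 lay far from the other tumours, at 57.6 CPM against 33.1 CPM in the next highest, with a gap on the log2 scale of 0.838 of the range of the 5 tumours where Dixon's critical value is 0.71. It was the single such value among 26 genes examined, and chance marks about 5% of groups. Without tumour 2 the tumours were still all above the brains.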

How the results depend on the processing

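Fdps, Fdft1, Sqle, Dhcr7 and Srebf2 kept their direction and their call in all 18 alternatives, with log2 fold changes from 1.11 to 1.45, -0.75 to -0.50, 0.66 to 0.86, 0.78 to 1.04 and -1.03 to -0.83. Cyp51 kept its direction in all 18 and its call in 7. Its log2 fold change was 0.29 with no filter on low counts (adjusted p = 0.0556, edgeR), 0.24 and 0.25 with limma on log2(FPKM + 1) and log2(FPKM + 0.1) (0.0507 and 0.0508), 0.24 with libraries thinned to one depth (0.0756, edgeR) and 0.27 without brain 1 and tumour 4 (0.0925, edgeR). Both of the latter settings were chosen after seeing the data. With single libraries left out it ranged from 0.24 to 0.30. The shift of Fdps over Sqle was 0.49 as a log2 ratio of deposited FPKM, with an exact permutation p adjusted over the 15 pairs of 0.134. The SD among tumours ranged from 0.079 to 0.455 for Fdps and from 0.083 to 0.155 for Sqle when single tumours were left out. With library size only it was 0.120 for Cyp51 and 0.097 for Sqle, so which of these genes was more even depends on the scaling. Scd2 lost its call with library size only (adjusted p = 0.0520, edgeR) and without brain 1 (adjusted p = 0.0705). Upper quartile factors and library size only moved the median log2 fold change of all genes by 0.12 and 0.14. No paired analysis was possible because the replicate numbers only count libraries within a group, and no label ties a brain to a tumour. Depth limits Fdps and Dhcr7 most, with 295 and 415 fragments over the brains, and the cause of these dependences was not tested.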

Other observations

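Fatty acid synthesis, the other arm of SREBP control, had 1 of 10 genes higher and 3 lower in the tumours, with a median log2 fold change of -0.27. Acly, which makes cytosolic acetyl-CoA from citrate, rose from 269.5 ± 1.42 CPM in the brains to 472 ± 87.4 CPM in the tumours (SD, n = 3 and 5), or 0.81 ± 0.17 (SE) as a log2 fold change. Acss2, which makes it from acetate, fell from 65.8 ± 8.81 to 19.2 ± 12.7 CPM, a log2 fold change of -1.76 ± 0.43. Scd2, a desaturase abundant in brain, fell from 1346 ± 191 to 662 ± 294 CPM, a log2 fold change of -1.02 ± 0.32. With DESeq2 or limma the count called lower was 5. The summed level of the list was 2375 to 2774 CPM in the brains and 1529 to 2403 CPM in the tumours. Tumour 4 was the highest tumour and within the range of the brains. Scd2 alone held 1226 to 1566 CPM of these sums in the brains and 385 to 1141 CPM in the tumours, also highest in tumour 4. The sums therefore largely reflect that gene and are not read as a shift of the whole list.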
